A study of Mus musculus with 16 samples.

Results

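Knockout pericytes were set against knockout endothelial cells, both sorted from tumours grown in mice that lack endosialin. This comparison uses 8 of the 16 arrays of the series, chosen by the labels alone: 4 arrays of pericytes and 4 of endothelial cells from knockout hosts. The other 8 arrays hold wild-type pericytes and wild-type endothelial cells, 4 each. All hosts were female Balb/c UbGFP mice aged 6 to 8 weeks, whose green fluorescent protein transgene is known to run from a ubiquitin promoter active in most cells. All carried tumours of 67NR, a mouse mammary carcinoma line, in a mammary fat pad. The knockout was in the host, and the same line was injected in both genotypes. Tumours grew for 2 to 4 weeks to an average of 10 mm across, and RNA came from freshly sorted cells that had not been cultured. Neither the sorting markers nor how many mice or tumours stand behind an array could be read from the labels, so p-values measure the spread between these samples, which may be technical.

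Pericytes are mural cells that wrap around small vessels and share a basement membrane with the endothelium they cover. Endothelial cells release platelet-derived growth factor B, which draws pericytes that carry its receptor, and pericytes in turn contract, deposit matrix and supply ligands for endothelial receptors. Endothelial cells line the vessel, are joined by VE-cadherin and claudin junctions, and sprout in response to vascular endothelial growth factor (VEGF). Endosialin (Cd248) is a transmembrane C-type lectin family protein made by pericytes and stromal fibroblasts of tumours.

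Values are the authors' normalized probe intensities on a log2 scale, so a difference of 1 is 2-fold. Array medians lay between 7.18 and 7.21. The scale is compressed near its floor, where the lowest value was 6.58, so folds of genes that are dim in one cell type are understated. Correlation across genes was 0.941 to 0.979 among knockout pericyte arrays, 0.961 to 0.976 among knockout endothelial arrays and 0.731 to 0.763 between the cell types. Knockout pericyte replicate 1 stood apart from replicates 2, 3 and 4 in its low level of keratinocyte and mast cell transcripts, and replicates 2 and 3 stood apart from replicates 1 and 4 in their high level of melanocyte transcripts, as described below. In bulk samples, fewer cells of a type and less RNA per cell cannot be told apart.

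Cd248 served as the check of the labels. Its brighter probe read 7.21, 7.10, 7.09 and 6.96 in knockout pericyte replicates 1 to 4, against 7.44, 7.36, 7.04 and 7.23 in knockout endothelial replicates 1 to 4. All 8 values lay near the array median and the groups overlapped, with a difference of -0.18 (SE 0.12, limma, adjusted p = 0.281). In wild-type tumours the same probe was 3.94 higher in pericytes.

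Of 10426 genes tested, 1809 were higher and 1934 lower in knockout pericytes than in knockout endothelial cells, which is 17.4% and 18.5% of them and 35.9% together (limma, Benjamini-Hochberg adjusted p under 0.05). At 2-fold or more, 562 were higher and 392 lower, which is 5.39% and 3.76% of the genes tested and 9.15% together. At 8-fold or more the counts were 48 and 16. All 4 pericyte arrays lay above all 4 endothelial arrays for 17.3% of genes and all below for 19.4%, which is 36.6% without overlap. The median difference over all genes tested was -0.04. A gene could enter the test through the arrays of the one cell type that expresses it, and such a gene has to differ, so counts of list members below describe the lists and are not support for them.

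The genes that were furthest above endothelial cells in knockout pericytes were matrix, matrix-modifying and secreted-factor genes, while those furthest below were receptors, junction proteins and secreted factors of endothelium. Col3a1, the chain of type III collagen, read 12.11, 11.78, 11.77 and 11.83 in pericyte replicates 1 to 4, against 6.89, 6.90, 7.40 and 7.21 in endothelial replicates 1 to 4. The lowest pericyte array was more than 4 units above the highest endothelial array, a 27.3-fold difference (log2 4.77, SE 0.15, limma, adjusted p = 2.73e-14). Rarres2, which encodes the chemoattractant chemerin, read 11.84, 11.54, 11.57 and 11.50 in pericytes and 6.88, 6.96, 7.12 and 6.93 in endothelial cells. The small proteoglycan gene Dcn (decorin) read 11.26, 11.11, 10.97 and 11.20 in pericytes and 6.75, 6.81, 7.02 and 6.90 in endothelial cells. Both genes were at or below the array median on every endothelial array. Among the 15 largest differences on this side that met the rule for named genes were also the carboxypeptidase-like Cpxm1 (4.16), the surface glycoprotein Thy1 (4.14), the protease inhibitor Serpine2 (4.06), Col6a2 (4.06), the stromelysin Mmp3 (3.98), Col1a1 (3.94), Col5a1 (3.94), the chemokine Cxcl14 (3.89), Pi16 (3.87) and lipoprotein lipase (Lpl, 3.84). The basal keratins Krt5 (4.24) and Krt14 (3.84) completed the 15 and are described with the other cell types.

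On the endothelial side, Robo4, a vascular guidance receptor, read 6.71, 7.06, 6.87 and 6.82 in pericyte replicates 1 to 4, against 11.13, 11.02, 10.91 and 10.95 in endothelial replicates 1 to 4. That is 17.6-fold lower in pericytes (log2 -4.14, SE 0.10, limma, adjusted p = 1.41e-15), with no overlap. Each gene is given by the kept probe with the highest mean. The other 3 probes of Robo4 gave smaller differences of -1.09, -0.72 and -0.36. Cldn5, the main claudin of endothelial tight junctions, read 6.86, 6.97, 6.84 and 6.89 in pericytes and 10.85, 11.27, 10.70 and 10.96 in endothelial cells. Igfbp3, a carrier of insulin-like growth factors, read 8.71, 8.83, 8.58 and 8.16 in pericytes and 12.53, 12.38, 12.28 and 12.36 in endothelial cells. Unlike Robo4 and Cldn5, Igfbp3 was well above the array median in both cell types. The remaining 12 were the secreted factor Egfl7 (-3.79), the proteoglycan endocan (Esm1, -3.70), Pecam1 (-3.63), Gpihbp1 (-3.56), the lectin-like receptor Cd93 (-3.39), apelin (Apln, -3.33) and its receptor Aplnr (-3.32), VE-cadherin (Cdh5, -3.17), the water channel Aqp1 (-3.17), Notch4 (-3.09), the repressor Bcl6b (-3.08) and the chemokine receptor Cxcr4 (-3.04). Other probes were smaller for several of the 30 genes, at 0.71 for Col6a2, 1.19 for Serpine2, 1.54 for Thy1, -0.72 for Notch4, -0.29 and -2.74 for Egfl7, and 0.84 and 1.11 for Dcn, with another at 4.28. Of 117 called genes named here that have another kept probe, 45 have one with less than 50% of the printed difference, and 1, Itgav, has one of opposite sign. Limma adjusted p for the 30 genes lay between 1.41e-15 for Robo4 and 3.07e-06 for Krt14.

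**Figure D1:**
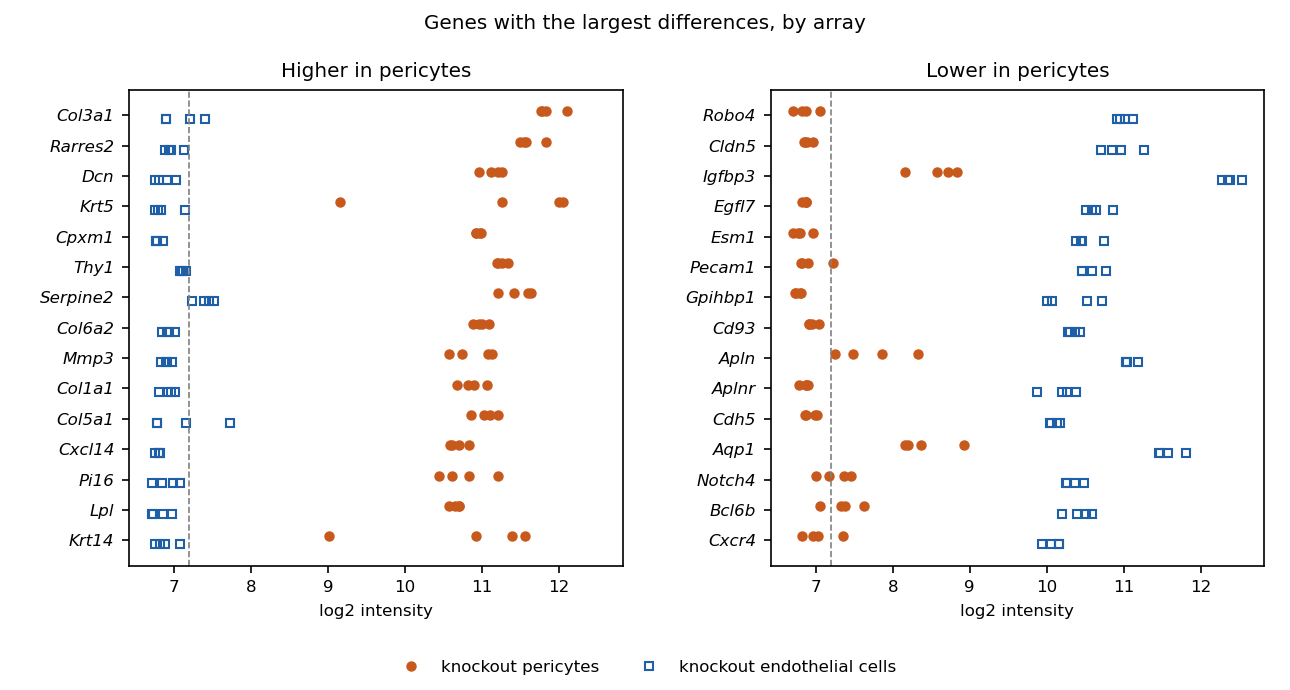
Log2 intensity (x axis) of 15 genes higher and 15 lower in pericytes, 1 row per gene, with 1 point per array: filled circles are the 4 knockout pericyte arrays and open squares the 4 knockout endothelial arrays. The dashed line marks the mean of the array medians. In every row the 2 groups are apart, and Robo4, Cldn5 and Egfl7 sit near or below the line in pericytes as Col3a1, Rarres2 and Dcn do in endothelial cells.

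Promoters of 2 genes from each side are printed, all from the 30 named above. Col3a1 and Robo4 had the largest difference on their sides, and Mmp3 and Notch4 were chosen as a protease and a receptor. They are the 250 bases before the RefSeq transcription start (GRCm38.p6), 5′ to 3′ on the gene's strand, which is the plus strand for all 4. Capitals mark 3 motifs, each searched on both strands, and no hits overlap. The first is AGGAAG, which holds the core that transcription factors of the ETS family bind. The second is TGAGTCA, a sequence bound by AP-1, the dimer of Fos and Jun proteins. The third is TATAAA, the box that positions transcription in some promoters. Robo4 (chr9:37401722-37401971) holds 1 AGGAAG, Notch4 (chr17:34564045-34564294) holds 3, Col3a1 (chr1:45311288-45311537) holds 0 AGGAAG and 1 TATAAA, and Mmp3 (chr9:7445572-7445821) holds 1 of each motif.
Robo4: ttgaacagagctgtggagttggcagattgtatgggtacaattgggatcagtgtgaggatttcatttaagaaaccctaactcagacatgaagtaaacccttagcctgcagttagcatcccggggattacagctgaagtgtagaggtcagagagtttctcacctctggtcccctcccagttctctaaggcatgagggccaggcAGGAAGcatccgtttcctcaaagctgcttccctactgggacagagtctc
Notch4: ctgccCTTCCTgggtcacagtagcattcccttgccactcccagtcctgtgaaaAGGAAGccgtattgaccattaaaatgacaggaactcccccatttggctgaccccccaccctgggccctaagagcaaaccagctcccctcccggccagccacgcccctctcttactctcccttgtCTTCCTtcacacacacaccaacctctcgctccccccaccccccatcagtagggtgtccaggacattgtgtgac
Col3a1: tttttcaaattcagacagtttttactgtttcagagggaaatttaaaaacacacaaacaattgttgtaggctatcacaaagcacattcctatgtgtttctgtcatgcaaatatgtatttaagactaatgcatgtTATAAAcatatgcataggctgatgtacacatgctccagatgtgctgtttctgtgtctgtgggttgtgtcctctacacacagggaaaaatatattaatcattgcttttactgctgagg
Mmp3: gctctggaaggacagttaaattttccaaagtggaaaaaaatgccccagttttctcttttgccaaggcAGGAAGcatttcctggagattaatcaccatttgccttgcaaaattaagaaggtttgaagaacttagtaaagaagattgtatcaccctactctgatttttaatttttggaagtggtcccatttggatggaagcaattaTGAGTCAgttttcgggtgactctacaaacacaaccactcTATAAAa
Over all 32851 promoter windows of this length, AGGAAG is found in 29.5%, TGAGTCA in 4.46% and TATAAA in 12.4%. A match is a description of the letters and was not tested as a binding site.

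Structural matrix genes were higher in knockout pericytes with few exceptions. All 13 tested of 15 listed fibrillar and associated collagens were higher, with a median of 3.22. They ran from the fibril-associated Col14a1 (0.57) to Col3a1. Col1a1 and Col1a2, the chains of type I collagen, differed by 3.94 and 3.50. The type VI collagen chains Col6a1, Col6a2 and Col6a3, which form beaded filaments around cells, differed by 3.22, 4.06 and 3.74. Col1a2 read 10.68, 10.25, 10.34 and 10.33 in pericyte replicates 1 to 4, against 6.89, 6.82, 6.95 and 6.92 in endothelial replicates 1 to 4, without overlap. Elastic fibre and crosslinking genes numbered 14 tested of 19, and all were higher, with a median of 1.78. Among them were the microfibril protein fibrillin-1 (Fbn1, 3.35), Fbln1 (3.73), Efemp2 (2.68) and the collagen and elastin crosslinker lysyl oxidase (Lox, 2.59), while elastin itself (Eln) differed by 0.84.

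Of 22 proteoglycan and matricellular genes, 19 were tested, 15 were higher and none was lower, with a median of 1.71. Biglycan (Bgn) differed by 3.78, Lum by 3.45, fibronectin (Fn1) by 3.03, Thbs2 by 3.56 and Postn by 2.81. Among the exceptions was Sparc, a collagen-binding glycoprotein that was bright in both cell types and read 12.20, 11.71, 11.85 and 12.06 in pericytes and 11.91, 11.84, 11.83 and 11.86 in endothelial cells, with overlap (limma, adjusted p = 0.517). Thbs1 stood at 0.24 and did not pass either. Enzymes that fold and trim collagen gave smaller differences, with 15 of 23 higher and a median of 0.43. The procollagen C-proteinase Bmp1 differed by 1.54, its enhancer Pcolce by 1.36, the transcription factor Creb3l1 by 1.39 and prolyl hydroxylase subunits P4ha2 and P4ha3 by 1.00 and 1.17. Tram2 was lower (-0.42), and the collagen chaperone Serpinh1 (0.23) did not pass.

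Proteases and their inhibitors were higher together. Of 21 tested genes, 18 were higher and none lower, with a median of 1.37. Mmp3 read 11.08, 11.12, 10.57 and 10.73 in pericyte replicates 1 to 4, against 6.90, 6.89, 6.97 and 6.83 in endothelial replicates 1 to 4. The gelatinase Mmp2 differed by 3.34, the collagenase Mmp13 by 2.92, the procollagen N-proteinase Adamts2 by 2.81 and cathepsin K (Ctsk) by 2.47. The inhibitors Timp1 and Timp2 differed by 2.83 and 2.61, and Serpinf1, which encodes the antiangiogenic factor PEDF, by 3.78. The other 3 did not pass.

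The label of pericyte was borne out by some of the cell's markers and not by others. Of 25 listed pericyte genes, 20 were tested, 16 were higher and 1 lower in the pericyte sort, with a median of 1.05. Rgs5, a regulator of G protein signalling that marks pericytes, read 11.20, 11.52, 11.29 and 11.30 in pericyte replicates 1 to 4, against 8.34, 8.73, 8.14 and 8.51 in endothelial replicates 1 to 4. It was 7.46-fold higher (log2 2.90, SE 0.28, limma, adjusted p = 1.33e-07) but stood above the array median in endothelial cells too. Pdgfrb, the receptor for platelet-derived growth factor B, read 7.79, 7.94, 7.95 and 8.14 in pericytes and 6.86, 6.82, 6.78 and 6.80 in endothelial cells. The NG2 proteoglycan gene Cspg4 read 8.30, 8.58, 8.35 and 8.56 in pericytes and 7.41, 7.39, 7.46 and 7.30 in endothelial cells. Neither gene overlapped, with differences of 1.14 and 1.06. Notch3, a mural Notch receptor, differed by 1.47, its target Heyl by 1.03, the intermediate filament desmin (Des) by 1.94, Rgs4 by 2.02 and aminopeptidase N (Anpep) by 1.68.

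The subunits of the mural ATP-sensitive potassium channel did not set the sorts apart. Kcnj8 read 8.23, 8.54, 8.34 and 8.62 in pericytes and 8.58, 8.73, 8.25 and 8.52 in endothelial cells, and Abcc9 differed by 0.33 (limma, adjusted p = 0.854 and 0.496). Mcam, an adhesion molecule listed for pericytes and also made by endothelium, was lower in pericytes, at 9.86, 10.27, 9.90 and 10.03 against 11.29, 11.14, 11.03 and 11.20 in endothelial cells. Contractile genes gave a mixed picture, with 7 of 13 tested higher, 2 lower and a median of 0.53. Tpm2 (2.81), the myosin light chain Myl9 (2.20) and smooth muscle myosin Myh11 (1.38) were higher, while smoothelin (Smtn, -1.15) and Csrp1 (-0.77) were lower. Smooth muscle actin (Acta2) read 9.96, 9.48, 9.40 and 9.62 in pericytes and 9.41, 9.26, 9.08 and 8.67 in endothelial cells, where all arrays were well above the median, and it did not pass (limma, adjusted p = 0.117). Averaged over all its kept probes the difference was 1.32, which passed (limma, adjusted p = 0.000444).

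Fibroblast markers were also higher in the pericyte sort, by more than the pericyte markers as lists go. Of 24 listed genes 21 were tested and 20 were higher, with a median difference of 2.32, where that of the pericyte list was 1.05. Pdgfra, a receptor that marks fibroblasts rather than pericytes, read 10.55, 10.18, 10.31 and 10.16 in pericyte replicates 1 to 4, against 6.78, 6.82, 6.97 and 6.77 in endothelial replicates 1 to 4. Pi16, known from adventitial fibroblasts, read 11.21, 10.61, 10.44 and 10.83 in pericytes and 6.99, 6.85, 7.07 and 6.72 in endothelial cells. Dermatopontin (Dpt) differed by 3.40, the hyaluronan synthase Has1 by 3.75, the Wnt antagonist Sfrp2 by 2.37, fibroblast activation protein (Fap) by 1.31 and podoplanin, listed on the array as Gp38, by 2.67. S100a4 stood at 0.56 and did not pass. Of the 22 listed genes in the table, 20 lay above the array median on all pericyte arrays and 3 on all endothelial arrays. How far the pericyte gate also held fibroblasts was not tested. The mean over the fibroblast list was 9.51, 9.13, 9.21 and 9.32 in the 4 pericyte arrays, against 7.16, 7.18, 7.20 and 7.15 in the 4 endothelial arrays.

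Transcription factors of mesenchymal lineages followed the same side less uniformly. Of 43 listed, 29 were tested, 17 were higher and 4 lower. Prrx1, a homeobox factor of limb and connective tissue mesenchyme, differed by 2.70, Nfatc4 by 2.41, Tbx15 by 1.78, Runx1 and Runx2 by 1.25 and 1.21, and the basic helix-loop-helix factors Twist1 and Twist2 by 0.71 and 1.01. The zinc finger pair Zeb1 and Zeb2 went opposite ways. Zeb2 read 9.38, 9.28, 9.41 and 9.32 in pericytes and 7.00, 6.85, 6.90 and 7.03 in endothelial cells. Zeb1 read 8.15, 8.22, 8.10 and 8.47 in pericytes and 9.26, 9.20, 9.14 and 8.99 in endothelial cells. Zeb2 differed by 2.40 and Zeb1 by -0.91 (limma, adjusted p = 9.85e-14 and 1.52e-07). The homeobox factors Meox1 (-0.78) and Meox2 (-0.96) were also lower.

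**Figure D2:**
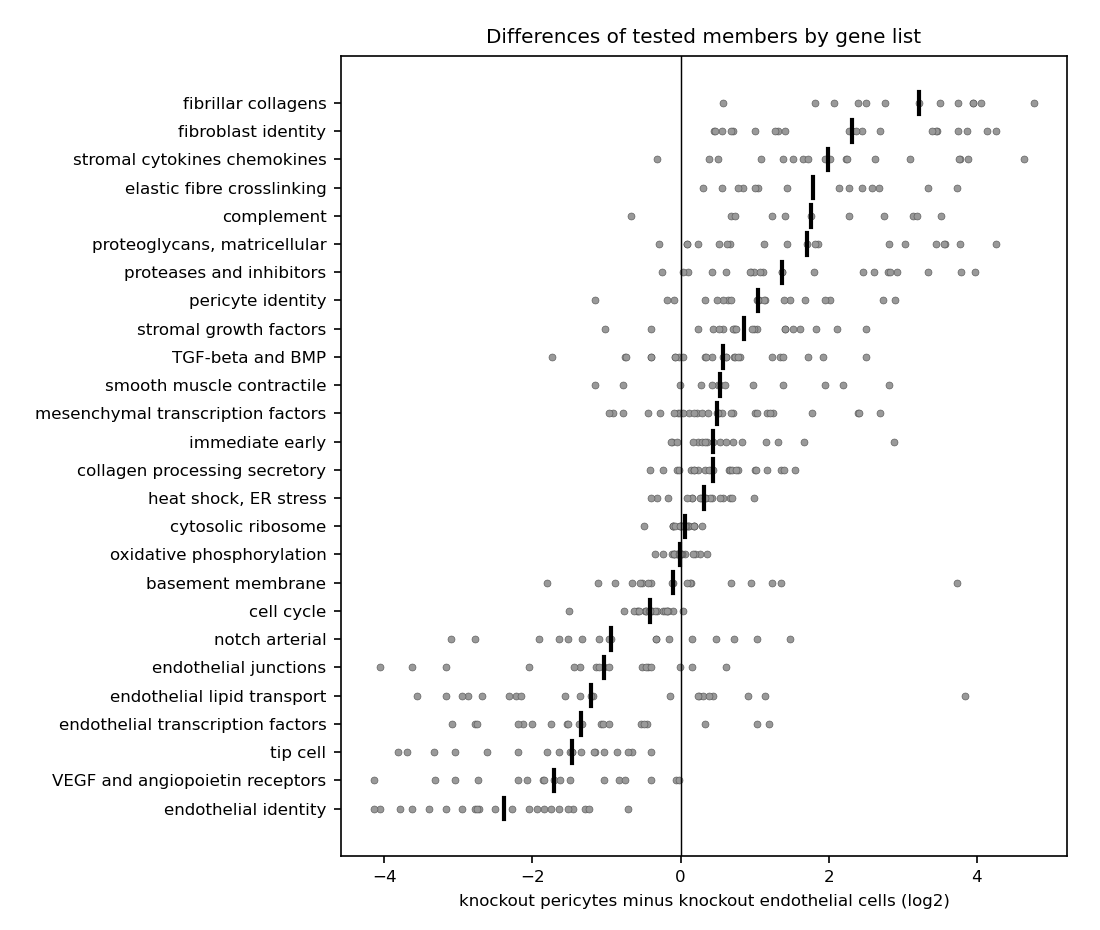
Difference of knockout pericytes minus knockout endothelial cells (x axis, log2) for the tested members of 26 gene lists, 1 row per list, with 1 grey point per gene and a black bar at the list's median. Zero is marked by a line. Collagen, fibroblast and elastic fibre members all lie right of it, endothelial identity and tip cell members all lie left, and ribosomal and oxidative phosphorylation members gather on it.

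Endothelial identity genes were lower in knockout pericytes without exception among those tested, 22 of 22 tested and 28 listed, with a median of -2.39. Pecam1, an adhesion molecule of the endothelial surface, read 6.82, 7.22, 6.90 and 6.81 in pericyte replicates 1 to 4, against 10.77, 10.58, 10.46 and 10.46 in endothelial replicates 1 to 4. Cdh5 read 6.87, 6.99, 6.86 and 7.02 in pericytes and 10.17, 10.04, 10.06 and 10.13 in endothelial cells. On every pericyte array both genes were near or below the array median, and the groups were parted by more than 2 units. The fenestral diaphragm protein Plvap differed by -2.96, the sialomucin Emcn by -2.73, Icam2 by -2.28, Esam by -2.05 and Tie1 by -1.85. The smallest difference on the list was that of the progenitor and endothelial sialomucin Cd34, at -0.70.

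Transcription factors known for specifying endothelium were lower in pericytes, 16 of 20 tested, with a median of -1.35. The SoxF factors Sox7, Sox17 and Sox18 differed by -2.19, -2.78 and -2.75. The ETS factors Fli1, Erg, Ets2, Elk3 and Ets1 differed by -2.13, -1.74, -1.53, -1.37 and -1.33, and the bridging factor Lmo2 by -2.01. Sox17 read 6.73, 6.70, 6.74 and 6.72 in pericytes and 9.50, 9.43, 9.51 and 9.56 in endothelial cells. Klf4, a flow-responsive factor that mural cells also make, was higher in pericytes (1.20), as was the mural Notch target Heyl. The hypoxia factor Epas1 (-0.50) was lower by little, and Nr2f2 (0.33) and Gata2 (-0.54) did not pass.

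Receptors of angiogenic ligands were lower in pericytes, 15 of 17 tested, and none was higher, with a median of -1.71. Flt1, the VEGF receptor 1, read 7.14, 6.87, 6.91 and 7.05 in pericytes and 8.71, 8.66, 8.65 and 8.77 in endothelial cells. Kdr, the VEGF receptor 2, read 6.77, 6.80, 6.79 and 6.94 in pericytes and 8.18, 7.28, 8.38 and 7.56 in endothelial cells, where replicates 2 and 4 were lower than replicates 1 and 3 but still above every pericyte array. Flt4, the VEGF receptor 3, differed by -1.49, the angiopoietin receptor Tek by -1.63, the phosphatase Ptprb that restrains it by -2.73, the semaphorin receptor Plxnd1 by -2.20, and the co-receptors Nrp1 and Nrp2 by -0.84 and -1.85. Endoglin (Eng, -0.75) and its partner receptor Acvrl1 (-0.40) were lower by less than 2-fold. The other 2 did not pass.

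Tip cell genes, which mark the leading cells of sprouts, were all lower in pericytes, 19 of 19 tested, with a median of -1.47. Apln read 8.33, 7.86, 7.49 and 7.25 in pericytes and 11.18, 11.04, 11.02 and 11.02 in endothelial cells, and its pericyte values spread more than its endothelial ones, with replicate 1 highest. Esm1 read 6.97, 6.77, 6.79 and 6.70 in pericytes and 10.75, 10.46, 10.44 and 10.38 in endothelial cells. Angiopoietin-2 (Angpt2), which loosens the contact between the cell types, differed by -2.61, and the basement membrane linker Nid2 by -1.80. Among Notch and arterial genes 11 of 17 tested were lower and 4 higher. The endothelial receptor Notch4 (-3.09), the ligand Dll4 (-1.64), the glycosyltransferase Mfng (-1.91) and the target Hey1 (-1.52) were lower. Notch3, Heyl, Notch2 (0.48) and the ligand Jag1 (0.72) were higher.

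Junction genes were lower in 14 of 17 tested. Besides Cldn5, Pecam1, Cdh5 and Esam they included afadin (Mllt4, -1.44), the scaffold Tjp1 (-1.36), Jam2 (-1.14) and the connexin Gja5 (-1.10). The polarity gene Pard3 was higher (0.61), and the arterial connexin Gja4 (0.15) did not pass. Basement membrane genes split by chain. Of 18 tested, 5 were higher and 8 lower, with a median of -0.10. The laminin chains Lama2 (1.23) and Lamb2 (0.95) were higher in pericytes, while Lama4 (-0.66) and Lama5 (-0.88), the alpha chains of vascular laminins, were lower. Col4a1, bright in both, read 10.73, 10.87, 10.78 and 10.83 in pericytes and 11.35, 11.26, 10.97 and 11.22 in endothelial cells. Its groups were apart by a small margin (-0.39, limma, adjusted p = 0.000924). Among integrin and integrin-like genes, Itgb5 (1.59), the integrin-like Itgbl1 (1.26) and Itgav (0.64) were higher. Itga6 (-1.21), Itga3 (-1.15), Itga2 (-0.84), Itga9 (-0.81), Itgb1 (-0.77) and Itgb3 (-0.46) were lower, which makes 3 and 6 of 11 tested. The mean over all kept probes of Itgav was 0.12 and did not pass (limma, adjusted p = 0.388).

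Genes of lipid uptake divided between the cell types. Lipoprotein lipase (Lpl), which releases fatty acids from circulating lipoproteins, read 10.64, 10.57, 10.71 and 10.70 in pericytes and 6.72, 6.72, 6.97 and 6.86 in endothelial cells. Gpihbp1, the endothelial protein that carries this lipase to the vessel lumen, read 6.81, 6.80, 6.74 and 6.73 in pericytes and 10.07, 10.72, 10.00 and 10.52 in endothelial cells. The enzyme and its anchor were thus bright in opposite sorts, each at or below the array median in the other. The fatty acid receptor Cd36 (-2.87), the carrier Fabp4 (-2.22), the lipoprotein receptor Scarb1 (-2.32), the regulator Pparg (-1.19) and the caveolar genes Cav1 (-2.15), Cav2 (-1.36), Ptrf (-1.56) and Sdpr (-2.68) were lower in pericytes. Of 21 tested members of the transport list 12 were lower and 6 higher. The prostaglandin transporter Slco2a1 (0.91) was among the higher ones.

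Secreted signals of stroma were higher in knockout pericytes. Of 18 tested cytokine and chemokine genes 16 were higher and none lower, with a median of 1.99. The monocyte and eosinophil chemokines Ccl7 and Ccl11 differed by 3.78 and 3.76, the prostaglandin synthase Ptgs2 by 2.25, the alarmin Il33 by 2.23, Il6 by 1.72 and Ccl2 by 1.66. Il33 read 9.34, 9.12, 9.01 and 8.84 in pericytes and 6.78, 6.83, 6.87 and 6.92 in endothelial cells, without overlap. The interferon-induced Cxcl10 (0.39) did not pass. Complement genes were higher in 10 of 11, with the C1 inhibitor Serping1 at 3.52 and C3 at 3.13, while the membrane inhibitor Cd59a was lower (-0.67). C4a and C4b, near-identical copies whose probes may share signal, differed by 3.19 and 2.75.

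Growth factor genes listed for stroma were higher in 17 and lower in 2 of 20 tested. The activin subunit Inhba differed by 2.51, Fgf10 by 2.12, pleiotrophin (Ptn) by 1.82, Fgf7 by 1.62, Wnt5a by 1.51 and Igf1 by 0.99. Stem cell factor (Kitl) was lower in pericytes, at 7.31, 7.63, 7.43 and 7.31 against 8.36, 8.34, 8.59 and 8.46 in endothelial cells, and Bmp4 by little (-0.40). In the insulin-like growth factor axis 7 of 9 tested were higher, among them the binding proteins Igfbp4 (1.62), Igfbp5 (2.02) and Igfbp6 (1.05). Igfbp3 and Igfbp7 (-0.48) were the 2 that were lower.

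Several ligands and their receptors lay in opposite sorts. Vegfa read 8.52, 8.23, 8.38 and 8.04 in pericytes and 7.05, 6.93, 6.77 and 6.78 in endothelial cells, while its receptors Flt1 and Kdr were lower in pericytes. Pdgfb read 6.82, 6.83, 6.81 and 6.80 in pericytes and 8.81, 7.93, 8.27 and 8.12 in endothelial cells, opposite to its receptor Pdgfrb. Endothelin-1 (Edn1) read 6.86, 6.88, 6.83 and 6.99 in pericytes and 8.82, 8.45, 7.77 and 7.56 in endothelial cells. Its receptor Ednra, which drives mural contraction, read 9.34, 9.34, 9.64 and 9.75 in pericytes and 6.80, 6.79, 6.73 and 6.79 in endothelial cells, and the other receptor, Ednrb, was lower in pericytes (-1.34). The pair of endothelin receptors thus differed in opposite directions. Ednrb was not confined to endothelial cells, as another of its probes averaged 8.07 in pericytes and 9.11 in endothelial cells, above the array medians in both. Cxcl12 read 10.38, 9.80, 9.92 and 9.90 in pericytes and 7.05, 6.90, 6.84 and 6.84 in endothelial cells. Its receptor Cxcr4 read 6.82, 7.35, 6.97 and 7.03 in pericytes and 9.94, 10.16, 10.17 and 10.06 in endothelial cells.

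The guidance ligands Slit2 and Slit3 were higher in pericytes (1.29 and 2.04), as was their receptor Robo1 (0.82), where Robo4 was lower. Sema3f (-2.89) and its receptor Nrp2 were both lower in pericytes. The ligand Efnb2 (-0.93) and its venous receptor Ephb4 (-1.24) were lower too, and the related receptor Ephb2 was higher (1.08). Nitric oxide synthase of endothelium (Nos3, -0.89) was lower, while the subunits of its target, soluble guanylate cyclase (Gucy1a3, 1.40, and Gucy1b3, 0.57), and the kinase Prkg1 (0.89) downstream of it were higher. Prostacyclin synthase (Ptgis, 1.03) and the prostacyclin receptor (Ptgir, 1.46) were both higher in pericytes.

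**Figure D3:**
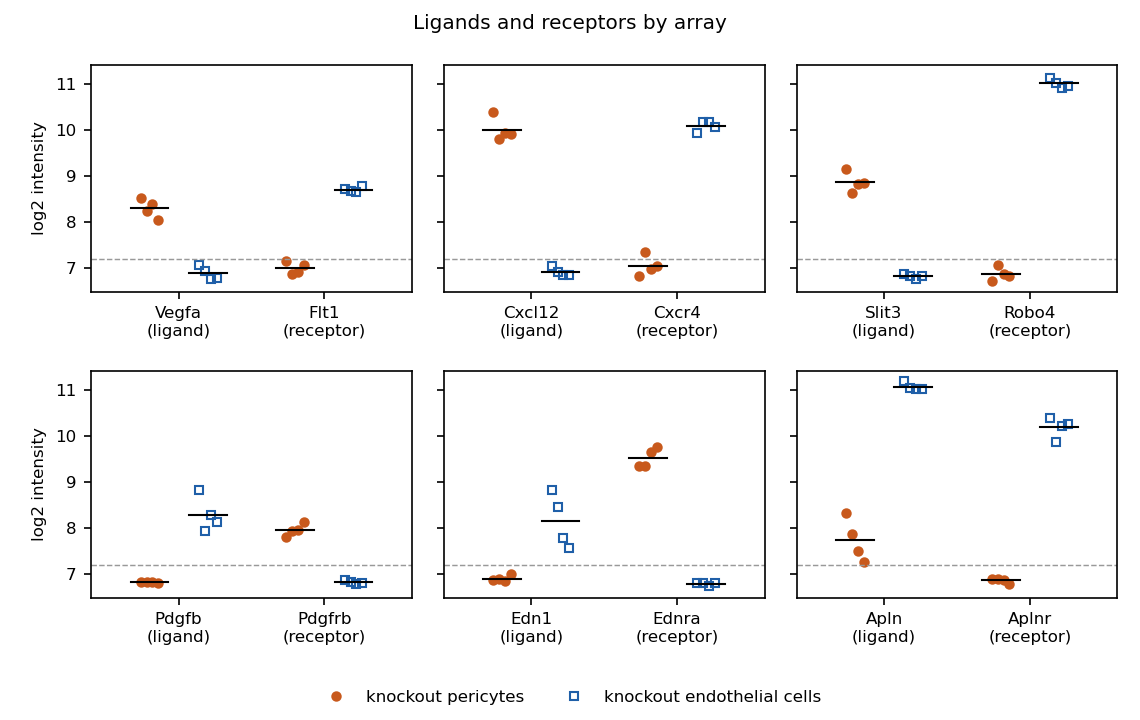
Log2 intensity (y axis) of 6 ligands, each drawn beside a receptor, with 1 point per array and a bar at the mean of 4. Knockout pericytes are filled circles, left in each pair, and knockout endothelial cells are open squares, right. Vegfa, Cxcl12 and Slit3 are higher in pericytes with Flt1, Cxcr4 and Robo4 lower. Robo1, named in the text as the receptor of Slit3, was also higher in pericytes and is not drawn. Binding was not tested. Pdgfb and Edn1 are lower in pericytes with Pdgfrb and Ednra higher, and Apln and Aplnr are both lower.

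In the TGF-beta and BMP pathway 16 of 25 tested genes were higher and 5 lower in pericytes. The receptors Tgfbr1 (0.73) and Tgfbr3 (1.34) and the mediator Smad3 (0.80) were higher, whereas Smad1, a mediator of BMP signals, was lower, at 8.62, 8.92, 8.98 and 8.28 in pericytes and 10.56, 10.44, 10.41 and 10.33 in endothelial cells. The BMP target Id2 was higher (1.23). Bmpr1a, a type I receptor for BMPs, was higher (1.93). Of 15 tested Wnt pathway genes 10 were higher, among them Fzd1 (1.28), Dkk3 (1.41) and Sfrp1 (1.41), and 3 lower, with the vascular receptor Fzd4 (-0.77) among them.

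Leukocyte adhesion genes did not share a side, with 3 higher and 6 lower of 15 tested. Vcam1 was higher in pericytes (0.98), while P-selectin (Selp, -1.29) and E-selectin (Sele, -0.67) were lower.

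Immediate early genes, which respond to stimuli within minutes and also to tissue dissociation, were higher in pericytes in 11 of 17 tested, and none was lower. Egr2 read 10.21, 10.23, 10.68 and 10.50 in pericytes and 6.95, 7.62, 7.91 and 7.63 in endothelial cells, Egr3 differed by 1.66 and Nr4a1 by 1.16. Fos read 10.46, 10.37, 10.63 and 10.45 in pericytes and 8.47, 9.57, 9.48 and 9.13 in endothelial cells, where replicate 1 was lowest. Atf3 (-0.13) and Dusp1 (0.17) did not pass. Whether dissociation and sorting acted differently on the cell types was not tested.

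Cell cycle genes were lower in pericytes in 11 of 22 tested and higher in none, with a median of -0.41. Cyclin D1 (Ccnd1) read 8.66, 9.33, 9.30 and 9.36 in pericytes and 10.80, 10.43, 10.70 and 10.74 in endothelial cells. It was the 1 member that was lower by 2-fold or more. The replication helicase subunit Mcm6 differed by -0.77, survivin (Birc5) by -0.63 and Aurka by -0.58, while Mki67 (-0.48) and Top2a (-0.19) did not pass. Endoplasmic reticulum chaperones were higher by small amounts, such as Hspa5 (0.43), Pdia4 (0.69) and Calr (0.40), in a list of stress genes with 11 of 18 higher and a median of 0.32. Hypoxia genes had a median of 0.06, with 3 higher and 4 lower of 18. These are 16.7% and 22.2%, near the 17.4% and 18.5% of all genes tested. The glycolytic Pgk1 (-0.18) did not pass. Interferon response genes were lower in 6 and higher in 1 of 23, with Rsad2 at -1.36 and Ifi44 at -1.03. That is 26.1% lower and 4.35% higher, where 18.5% and 17.4% of all genes tested were, and the list's median was -0.20. Of the ribosomal protein genes 1 was higher and 1 lower of 21, and of oxidative phosphorylation genes 1 was lower of 24, with medians of 0.06 and -0.01.

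Transcripts of cells other than pericytes and endothelium were found mainly in the pericyte arrays, and unevenly. Keratinocyte markers numbered 25 of 27 in the table, of which 9 lay above the array median on all knockout pericyte arrays and 0 on all knockout endothelial arrays. Their mean was 7.27, 9.19, 9.24 and 8.77 in knockout pericyte replicates 1 to 4, against 6.83, 6.85, 6.89 and 6.87 in knockout endothelial replicates 1 to 4. Krt5 read 9.15, 12.00, 12.06 and 11.25 in pericytes and 6.83, 6.78, 7.14 and 6.76 in endothelial cells, so that replicate 1, the lowest pericyte array, still exceeded every endothelial array. Krt17 read 6.97, 10.16, 9.97 and 9.25 in pericytes and 6.77, 6.78, 6.81 and 6.72 in endothelial cells, with pericyte replicate 1 below the array median. Of the 17 tested, 16 were higher (limma), against 1 in wild-type tumours, where 17.1% of all genes tested were higher and 36.2% differed. None of the 17 passed the test of the knockout difference against the wild-type difference. These counts are therefore not a tested difference between genotypes. A gene could also enter the test through the 4 knockout pericyte arrays alone. Of the 25 markers in the table, 9 lay above the array median on all of these, against 1 on all wild-type pericyte arrays. Both counts are thus partly set by the filter. Stfa1, a stefin A cysteine protease inhibitor of epidermis and granulocytes with near-identical neighbours whose probes may share signal, read 8.11, 10.43, 10.62 and 10.56 in pericytes and 6.74, 6.80, 6.89 and 6.82 in endothelial cells, with the same array lowest.

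Mast cell markers followed the same arrays. Of 11 genes in the table, 3 lay above the array median on all pericyte arrays and 3 on all endothelial arrays. Their mean was 7.07, 8.49, 9.22 and 8.39 in pericyte replicates 1 to 4, against 7.36, 7.29, 7.34 and 7.41 in endothelial replicates 1 to 4. The tryptase gene Tpsab1 read 7.67, 10.54, 11.14 and 10.45 in pericytes and 6.97, 6.79, 7.18 and 7.30 in endothelial cells, and carboxypeptidase A3 (Cpa3) read 7.11, 9.13, 10.25 and 9.29 in pericytes and 6.77, 6.79, 6.92 and 7.01 in endothelial cells. Cpa3 did not pass without pericyte replicate 3 or 4 (limma, adjusted p = 0.0768 and 0.0504), nor with a trended robust variance over all arrays (limma, adjusted p = 0.0503). With replicate 1 as the only pericyte array, Cpa3 differed by 0.24, Tpsab1 by 0.61 and Krt17 by 0.20, and none of these passed. Kit, the receptor of mast cells that endothelium can also make, was lower in pericytes (-1.73). Melanocyte markers were bright on 2 pericyte arrays. Dct, an enzyme of melanin synthesis, read 6.98, 9.49, 8.86 and 7.29 in pericyte replicates 1 to 4, against 6.80, 6.76, 6.75 and 6.83 in endothelial replicates 1 to 4. Tyrp1 read 6.82, 8.42, 8.10 and 6.95 in pericytes and 6.72, 6.77, 6.77 and 6.70 in endothelial cells. Both stood highest in pericyte replicates 2 and 3 and failed the filter on dim probes, so they were not tested. They were named after their values were seen.

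Of T cell genes, Cd3e read 8.03, 9.69, 9.46 and 8.82 in pericytes and 6.73, 6.74, 6.77 and 6.84 in endothelial cells, while the pan-leukocyte gene Ptprc was at or below the array median in both, at 6.83, 6.79, 6.96 and 6.81 in pericytes and 6.73, 6.78, 6.75 and 6.75 in endothelial cells. Of the 6 lymphocyte markers in the table, 2, Cd3e and Thy1, lay above the array median on all pericyte arrays, and 0 on all endothelial arrays. Thy1 is also a fibroblast marker. Macrophage and dendritic cell markers had means of 6.89, 7.17, 7.22 and 7.02 in pericytes and 7.05, 6.97, 6.91 and 6.82 in endothelial cells, with 0 of 12 above the median on all arrays of either group. Among them, Laptm5, a lysosomal membrane gene of leukocytes, read 7.00, 8.76, 9.33 and 8.09 in pericytes and 7.00, 7.25, 6.94 and 7.01 in endothelial cells. The adaptor gene Tyrobp read 6.93, 7.61, 8.16 and 7.43 in pericytes and 6.79, 7.01, 6.92 and 6.84 in endothelial cells. Both were above the array median in pericyte replicates 2, 3 and 4 and not in replicate 1. Granulocyte S100a9 read 6.75, 9.10, 8.88 and 9.65 in pericytes and 6.95, 6.75, 6.78 and 6.96 in endothelial cells, overlapping at replicate 1, and its difference with that replicate as the only pericyte array was -0.11. The epithelial cadherin Cdh1 read 8.15, 10.62, 10.37 and 10.19 in pericytes and 6.81, 6.99, 8.52 and 7.38 in endothelial cells. Krt18 read 6.78, 7.22, 7.39 and 8.98 in pericytes and 6.71, 6.73, 7.36 and 6.78 in endothelial cells, with pericyte replicate 4 highest. Globin was found in the endothelial sort instead, where Hbb-b1 read 9.47, 7.35, 7.48 and 8.38, against 7.32, 6.93, 6.84 and 6.81 in pericytes. Endothelial identity genes averaged 6.97, 7.12, 7.01 and 7.01 in pericytes, against 9.19, 9.12, 9.04 and 9.12 in endothelial cells. Of 26 in the table, 3 lay above the array median on all pericyte arrays, namely Esam (8.37, 8.82, 8.48 and 8.57), Cd34 (7.90, 7.50, 7.40 and 7.65) and Gpr116 (7.54, 7.71, 7.26 and 7.39), and 22 did so on all endothelial arrays. Palmd, on the same list, read 6.83, 8.62, 8.72 and 7.82 in pericytes and 9.36, 9.72, 9.76 and 9.72 in endothelial cells.

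**Figure D4:**
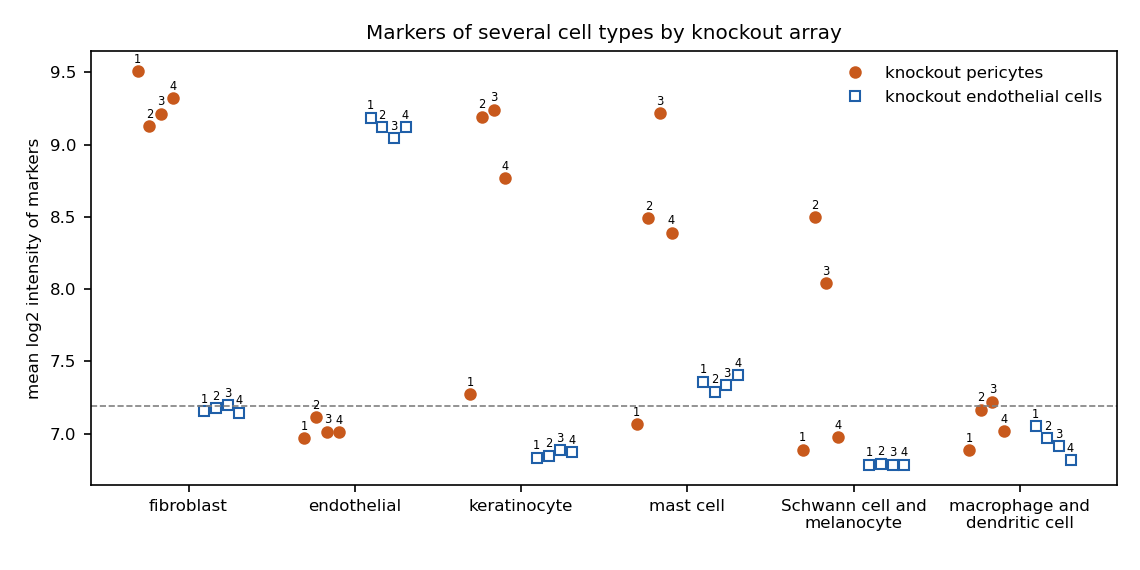
Mean log2 intensity (y axis) over the markers of 6 cell types or pairs of types, with 1 point per knockout array: filled circles are pericyte arrays and open squares endothelial arrays, numbered by replicate. The dashed line marks the mean of the array medians. Pericyte replicate 1 lies near the line for keratinocyte, mast cell, and Schwann cell and melanocyte markers, where replicates 2 and 3 lie above it, and the fibroblast means of all 4 pericyte arrays lie above 9.

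Most genes called higher were also higher on pericyte replicate 1. That array had the lowest keratinocyte and mast cell means of the pericyte arrays and the highest fibroblast mean (9.51). Of the 1809 higher genes, pericyte replicate 1 lay above every endothelial array for 1746, which is 96.5%. This held for all higher members of the collagen, elastic fibre, protease, cytokine, complement, pericyte and fibroblast lists, and for 14 of 16 of the keratinocyte list. Replicate 1 was among the arrays that made these calls, so the share was largely set beforehand. It does not tell transcripts of pericytes from those of other cells. With replicate 1 as the only pericyte array, 1187 genes were higher and 1020 lower, of which 1144 and 958 were calls of the full comparison. The spread of that lone array is taken from the other groups.

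Whether these differences depended on endosialin was asked by testing the knockout difference against the wild-type difference of the same gene. The 2 comparisons share no array. Cd248 differed between them by -4.12 (SE 0.17, limma, adjusted p = 6.11e-11). The unnamed transcript LOC100042514 was 1.38 greater in the knockout (limma, adjusted p = 0.025), with 8.25, 8.59, 8.64 and 8.37 in knockout pericytes and 6.83, 6.80, 6.87 and 6.88 in knockout endothelial cells. It did not pass without the filter on dim probes (limma, adjusted p = 0.0726). Leaving out 1 array at a time, LOC100042514 passed without knockout pericyte replicate 1 or wild-type pericyte replicate 3 and lost its call without any other array, with adjusted p from 0.0585 to 0.0962 (limma). These 2 genes were all that passed, 0.0192% of those tested. Among those next in order were Stfa3, at 1.59 (limma, adjusted p = 0.324), and Krt5, at 3.18 (limma, adjusted p = 0.483), which did not pass. Without knockout pericyte replicate 1, which had the lowest keratinocyte mean, 53 genes passed, Krt5 among them with 3.83 (limma, adjusted p = 7.09e-05). Krt5 read 9.15 on that array, the lowest of the knockout pericyte arrays, so leaving the array out had to raise this difference. The p-value is therefore not support for a dependence on genotype. With arrays weighted by their fit 10 genes passed.

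Across genes the knockout and wild-type differences had a correlation of 0.951, as a description over 10426 genes that are not independent. Col3a1 differed by 4.77 in knockout and 5.08 in wild type, Rgs5 by 2.90 and 3.20, Robo4 by -4.14 and -4.07, and Vegfa by 1.41 and 1.72. Keratinocyte genes showed a median difference of 2.01 in knockout tumours and 0.28 in wild type, the widest gap among the lists with at least 5 tested members. The filter could admit a keratinocyte gene through the knockout pericyte arrays alone, so this gap is partly set by the filter. None of the 17 tested keratinocyte genes passed the test of the difference between genotypes. For pericyte identity genes the medians were 1.05 in knockout and 1.33 in wild type, and for endothelial identity genes -2.39 and -2.40. A total of 732 genes passed in knockout and not in wild type, and they were small differences, with a median size of 0.37 in knockout and 0.20 in wild type. Only 1 of them, LOC100042514, also passed the test of the difference between genotypes.

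**Figure D5:**
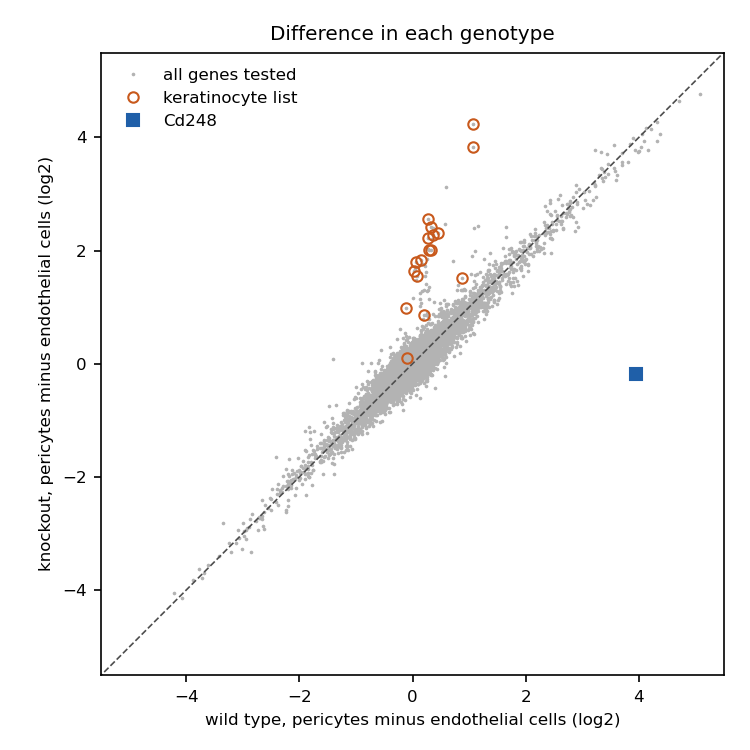
Difference of pericytes minus endothelial cells in knockout tumours (y axis, log2) against the same difference in wild-type tumours (x axis, log2), with 1 grey point per gene over 10426 genes and the line of equality dashed. The 17 tested keratinocyte list members are open circles, all above the line, and Cd248 is a filled square far below it. The filter could admit a keratinocyte gene through the knockout pericyte arrays alone, so the place of the circles is partly set by the filter.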

How the data were processed

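Amplified and biotin-labelled RNA of sorted tumour pericytes and endothelial cells was read on Illumina MouseWG-6 bead arrays, per the labels' protocols. GenomeStudio and lumi are named in the submitters' processing notes, with no versions. The authors deposited normalized log2 intensities of 24040 probes, and the series value table holds the same values. Sequencing depth does not apply, and precision rests on 4 arrays a group. No detection values were used, so a filter kept the 14632 probes above their array's median on at least 4 of 16 arrays, and each symbol kept its probe with the highest mean, giving 10426 genes. All 16 arrays entered 1 group-means fit (limma 3.58.1, R 4.3.3), in which the groups share a spread. Tests were two-sided with Benjamini-Hochberg adjustment over all genes and a threshold of 0.05. The same fit gave the wild-type difference and the test of knockout against wild type. The fit was tested on simulated data with independent noise and few changed genes. That setting lacks the many differences and the uneven pericyte arrays found here. Symbols are the array's. RefSeq (GRCm38.p6) gave promoters and chromosomes, matching 7554 genes by accession, 491 by symbol and 653 by synonym, with 1728 unmatched.

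The comparison and its gene lists were chosen with earlier results of these data known. Named genes are Cd248, the 15 largest differences each way with an established symbol, a pass and no overlap, cell type markers, and from each list its first 4 tested members, up to 8 that passed in the list's main direction and up to 4 in the other, and for the genotype test the 5 smallest unadjusted p each way. Genes named as not passing, and Col14a1, Gp38, Elk3, Epas1, Tek, Acvrl1, Pparg, Cav2, Ptrf, Il6, Robo1, Efnb2, Stfa1, Gpr116, Palmd, Laptm5 and Tyrobp, were chosen after their values were seen. Some genes that the rule names are not reported here. Alternatives covered the filter, probe choice, normalization, variance model, array weights, a replicate block, a size threshold and left-out arrays.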

Additional observations from a re-analysis of the deposited data

Results flagged for a closer look

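The pericyte minus endothelial difference of Cd248 was -4.12 in knockout relative to wild type, and that of LOC100042514 was 1.38, both by the limma test of the difference itself.

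For 35 of 532 gene and group combinations, 2 groups for each named gene, 1 array of 4 lay further from the others than Dixon's 95% critical value for 4 samples allows. Chance sets apart about 1 in 20 such groups, which is near this share over all arrays together. The flags were not spread evenly over the arrays, as 14 of the 35 fell on knockout pericyte replicate 1. Values below are the log2 intensity of that array, against the range of the other 3.

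Knockout pericyte replicate 1 was that array for 14 of them. It was the highest for Bgn (12.34 against 11.96 to 12.01), Bmp1 (11.23 against 10.99 to 11.01), Ccl11 (11.01 against 10.56 to 10.61), Efemp2 (10.06 against 9.42 to 9.51), Hoxc6 (8.70 against 7.92 to 8.05), Hoxd8 (8.79 against 8.17 to 8.19), Itgbl1 (8.99 against 7.66 to 7.75), Serpinf1 (11.43 against 11.001 to 11.05), Serping1 (11.08 against 10.36 to 10.42) and Tek (7.35 against 6.94 to 7.00). It was the lowest for Atf3 (7.43 against 8.63 to 8.80), Ccnd1 (8.66 against 9.30 to 9.36), Gucy1b3 (7.26 against 7.53 to 7.58) and Stfa1 (8.11 against 10.43 to 10.62). Pericyte replicate 2 stood apart for Il6 (10.53 against 9.70 to 9.84). Pericyte replicate 3 stood apart for Igf1 (9.60 against 9.98 to 10.03). Pericyte replicate 4 stood apart for Egfl7 (6.82 against 6.87 to 6.87) and Pgk1 (9.02 against 9.36 to 9.41).

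Among knockout endothelial arrays, replicate 1 stood apart for Apln (11.18 against 11.02 to 11.04), Cxcl14 (6.75 against 6.80 to 6.81), Inhba (7.11 against 6.87 to 6.91), Itgb5 (6.86 against 6.78 to 6.80), Klf4 (8.18 against 9.24 to 9.45), Palmd (9.36 against 9.72 to 9.76) and Vcam1 (7.38 against 7.02 to 7.05). Endothelial replicate 2 stood apart for Cxcl10 (7.91 against 8.92 to 9.01), Gucy1a3 (7.21 against 6.78 to 6.83) and Lama5 (8.05 against 7.92 to 7.93). Endothelial replicate 3 stood apart for Abcc9 (8.16 against 8.46 to 8.50), Fbln1 (7.07 against 6.85 to 6.89), Gja5 (7.68 against 8.12 to 8.15), Krt18 (7.36 against 6.71 to 6.78) and Lox (6.75 against 6.81 to 6.81). Endothelial replicate 4 stood apart for H19 (6.96 against 6.79 to 6.81) and Igfbp5 (7.49 against 7.10 to 7.16).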

How the results depend on the processing

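The comparison called 3743 genes. A separate fit with a stricter filter on dim probes, which tested fewer genes, called 2467 (1174 higher), and a test against a size of 2-fold called 466 (279 higher, 187 lower). With replicate 1 as the only pericyte array the count was 2207 (1187 higher, 1020 lower), from fewer samples. Without the filter it was 4419, under quantile normalization 3737 (49.0% higher, against 48.3%), and the median of all genes moved by 0.00372. Leaving out 1 array at a time gave 3348 to 3939 genes, 1650 to 1881 higher, 1698 to 2058 lower, 930 to 962 at 2-fold or more and 3392 to 3827 in wild type. The genotype test gave 2 genes at first, 1 without the filter and 10 with array weights. At an unadjusted p under 0.05 (limma) it gave 390. That is a smaller share of the 10426 genes tested than this threshold would pass if no gene differed. With 1 array left out the test gave 1 to 53 genes, where 53 came without knockout pericyte replicate 1. The cause was not tested.

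A replicate block gave 3922 genes, with 2 in the genotype test. Deviations of same-numbered arrays correlated at 0.224, 0.193, 0.174, 0.0322 in knockout and 0.433, 0.121, 0.0897, 0.0354 in wild type, replicates 1 to 4. They were the highest with their own number except in knockout replicate 4. The labels do not say whether a number marks a shared tumour or batch, and whether it pairs the samples was not tested. The main fit did not use the numbers. The block ended the call of no named gene and made Cxcl10, Laptm5 and S100a4 pass.

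Among single genes, the sign changed for Sparc (-0.049) under quantile normalization, Abcc9 (-0.079), Krt18 (-0.12), Laptm5 (-0.053) and S100a9 (-0.11) with replicate 1 as the only pericyte array. It also changed for Atf3, which ranged from -0.35 to 0.19 leaving out 1 array and was positive without knockout pericyte replicate 1. Of these, S100a9 had been called. With replicate 1 as the only pericyte array 27 results kept their sign and lost their call, and against a size of 2-fold 111 did. The cause was not tested. Values near the floor limit the genes that are dim in one cell type.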

Other observations

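Homeobox genes of the 4 Hox clusters, which record position along the body axis, did not all lie on one side. They and the genes below were chosen after their values were seen. All 3 tested genes of the Hoxc cluster on chromosome 15 were higher in knockout pericytes. Hoxc9 averaged 9.15 ± 0.23 in pericytes and 6.79 ± 0.04 in endothelial cells (SD, n = 4 each), a difference of 2.36 (limma, adjusted p = 4.16e-12). Hoxc10 differed by 1.91 and Hoxc6 by 1.44, and none of the 3 was above the array median in the endothelial mean. In the Hoxd cluster on chromosome 2 none was higher and 3 of 4 were lower, with Hoxd9 at 7.19 ± 0.14 in pericytes and 9.18 ± 0.17 in endothelial cells (-1.99, limma, adjusted p = 1.01e-11) and Hoxd8 at -1.49. In the Hoxb cluster 4 of 5 were lower, the furthest being Hoxb5 (-1.61) and Hoxb7 (-1.11), and in the Hoxa cluster 3 of 4, with Hoxa7 at -0.91. The wild-type differences were 2.53 for Hoxc9, -2.06 for Hoxd9 and -1.72 for Hoxb5.

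The 6 tested genes of the Gimap cluster on chromosome 6, which encode GTPases best known from lymphocytes, were all lower in knockout pericytes, from -1.98 for Gimap5 to -0.59 for Gimap9. Gimap5 averaged 6.87 ± 0.13 in pericytes and 8.84 ± 0.17 in endothelial cells (SD, n = 4 each). The pan-leukocyte gene Ptprc was at or below the array median on all of these arrays. That includes pericyte replicates 2 and 3, where Cd3e read 9.69 and 9.46. Of the 6 lymphocyte markers in the table, only Cd3e and Thy1, also a fibroblast marker, lay above the array median on all pericyte arrays. How many leukocytes a sort held was not tested. Which cells the Gimap transcripts came from was not tested. Among imprinted genes the differences went both ways. Mest was lower, at 6.77, 6.82, 6.75 and 6.75 in pericyte replicates 1 to 4, against 9.23, 9.68, 9.54 and 9.61 in endothelial replicates 1 to 4, and Peg3 was lower by less (-1.75). Dlk1 was higher in pericytes (1.91), as was the noncoding H19 (0.99).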
